A study of Rattus norvegicus with 6 samples.

Results

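The primary cilium transport and Bardet-Biedl syndrome (BBS) genes were described in RNA sequencing of rat rib tissue and of RCS, a line of rat chondrosarcoma cells with features of chondrocytes. They were taken by symbol: the genes named Ift, Bbs, Tctn or Nphp with a number, those starting with Dync2, and Mks1, Evc, Evc2, Arl13b, Cep290, Rpgrip1l, Tmem67, Ofd1, Wdr35 and Wdr19. The rule found 39 of the 27217 entries of the table, with 38 distinct symbols, since Tctn3 has 2 entries. There were 3 libraries per group, which the design text calls biological replicates. The rib samples are labelled neonatal, the RCS samples carry no treatment, and no strain, genotype or exact age is given. The labels do not say which cultures or animals the libraries came from, so p-values measure only the spread between these libraries.

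The primary cilium is a single antenna-like projection of the cell surface, built on a centriole and present on chondrocytes, where it is a site of hedgehog signalling and is oriented along the columns of the growth plate. Intraflagellar transport (IFT) carries cargo along it. The IFT-B particle is driven outward by kinesin-II, and the IFT-A particle is linked to the return by the dynein-2 motor. The BBSome is a coat-like complex that moves membrane proteins out of the cilium, the transition zone is the gate at its base, and the EvC complex sits just above that gate. Inherited defects in many of these genes cause ciliopathies, several of them with short ribs or short limbs.

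Levels are given as normalized counts, read here as counts divided by a factor for each library with no correction for gene length, and are not compared between genes. This reading is inferred from the steps between low values and is not certain, since the table is labelled RPKM as well as DESeq. Differences are RCS cells minus rib tissue on the log2(normalized count + 1) scale with their standard error (SE). A gene was called higher or lower in RCS cells at a limma adjusted p (Benjamini-Hochberg, over all 16809 genes tested) under 0.05. An estimated 5319360 to 8525030 reads per library fell on genes. All 8 chondrocyte markers, Col2a1 and Acan among them, were listed above 0 in every library. Of these 8 markers, 2 were higher in RCS cells, 2 were lower and 4 passed in neither direction, with a median difference of -0.12. They summed to 104277 to 171236 normalized counts in rib tissue and to 57049 to 77781 in RCS cells. Col2a1 alone, which was lower in RCS cells, was at 55595 to 112920 in rib tissue and 10780 to 16801 in RCS cells. Rib tissue also held other cell types. All 7 skeletal muscle markers, all 8 fibroblast and perichondrium markers, all 6 endothelial, all 6 myeloid and all 5 erythroid markers measured, and 4 of 6 osteoblast markers, were lower in RCS cells. Muscle markers summed to 20454 to 36362 in rib tissue against 117 to 140.1 in RCS cells, and fibroblast markers to 44286 to 78292 against 213 to 237. Prrx1, Dcn, Dmp1, Cdh5, Kdr, Tie1, Emcn, Ptprc, Aif1, Itgam, Hba-a2 and Hbb were listed at 0 in every RCS library. All 8 proliferation markers were higher in RCS cells (9160 to 10290 against 3710 to 4506 summed). The part of these cell types and of proliferation in the cilium results was not tested, and in bulk samples fewer cells of a type cannot be told apart from less RNA per cell.

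All cilium genes but Mks1 and the 2nd Tctn3 entry were listed above 0 in all 6 libraries. That Tctn3 entry was at 0 in all of them, which left 38 genes tested. Of these, 12 were higher in RCS cells, 12 were lower and 14 passed in neither direction. The members' called share was 63.2%, against 76.5% of all genes tested, with 31.6% higher against 32.9% and 31.6% lower against 43.6% of all genes. The groups did not overlap at 26 of the 38 genes, or 68.4%, against 78.9% of all genes. Differences were small. The median was -0.07 against -0.15 over all genes, the median size was 0.43 against 0.94, and 33 of 38 genes lay within 2-fold. At 2-fold or more, 2 were higher, Dync2li1 and Bbs10 (14.1% of all genes were), and 3 were lower, Dync2h1, Bbs9 and Mks1 (33.1% of all genes were). The all-gene values include genes above 0 in the 3 rib libraries alone, which pass the filter and can only differ towards rib tissue. With 1 rib library left out such genes are not tested, and 14757 to 14806 genes remained. The all-gene median was then 0.042 to 0.046, and that of the 37 cilium genes left was -0.11 to 0.01. The part of such genes in the all-gene shares was not tested.

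**Figure D1:**
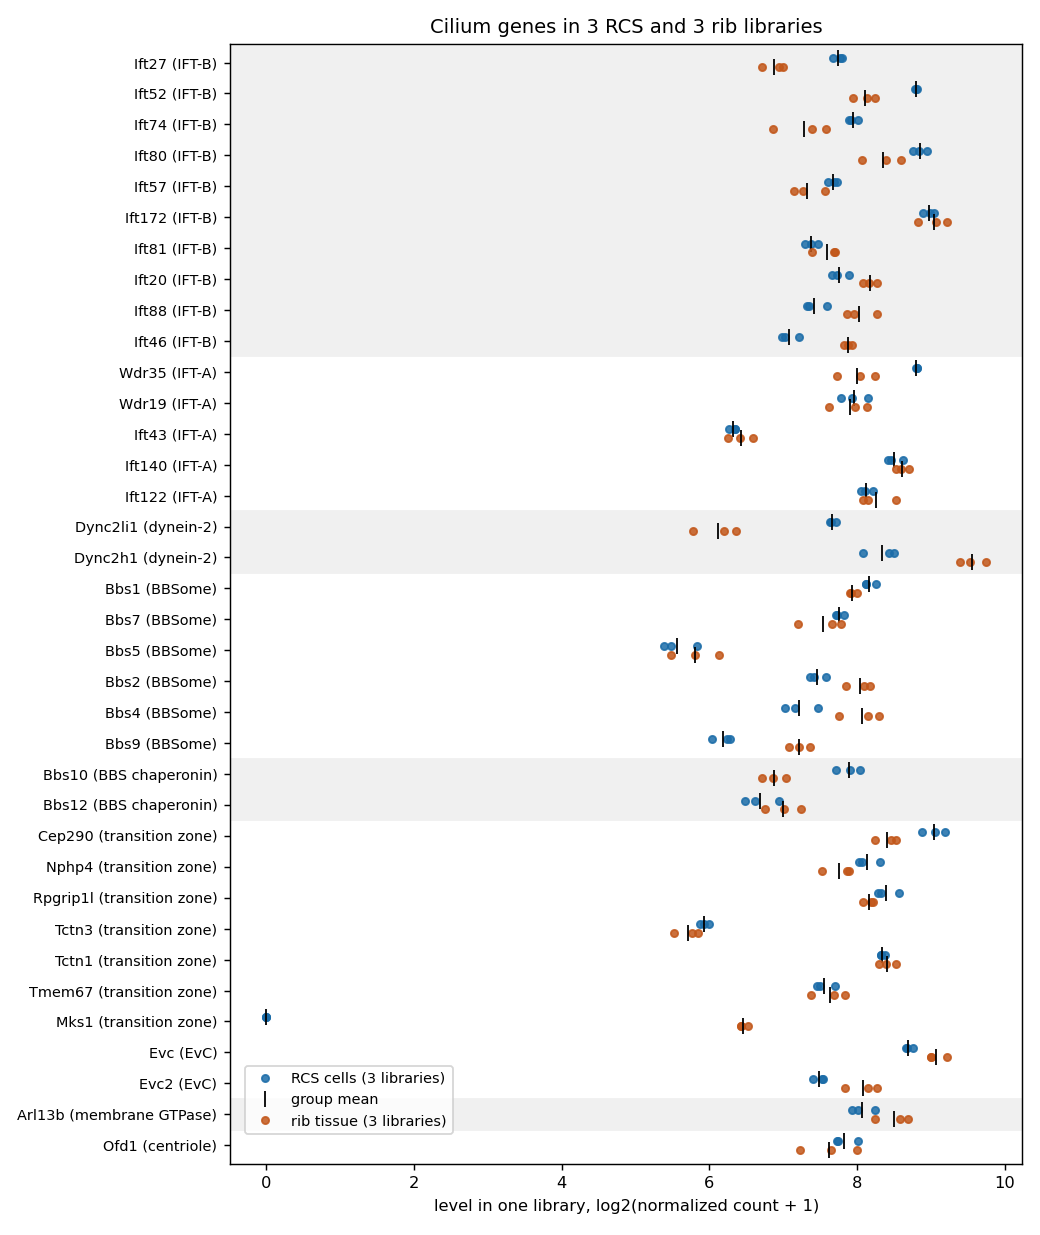
Level of 36 of the 38 cilium genes tested in each library, as log2(normalized count + 1), grouped by role (grey and white bands); points are libraries (blue, RCS cells; orange, rib tissue) and vertical ticks are the means of 3 libraries. Mks1 sits at 0 in the 3 RCS libraries and near 6.5 in the 3 rib libraries, while the other genes have their group means within 1.6 log2 units of each other.

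The scaling of the libraries sets where small differences fall. Quantile normalization moved the median difference of all genes by 0.47, median scaling by 0.29 and cyclic loess by 0.18 towards RCS cells. The members were then called higher and lower in numbers of 16 and 12 under quantile normalization (47.6% and 29.3% of all genes), 16 and 6 under median scaling (42.5% and 37% of all genes) and 7 and 17 under cyclic loess (37.1% and 36.9% of all genes). No member was called higher under one of the 4 scalings and lower under another. Among the 7 genes called higher under all 4 were Dync2li1, Bbs10, Ift27, Wdr35, Ift52 and Cep290. The 6 called lower under all 4 were Mks1, Dync2h1, Bbs9, Bbs4, Ift46 and Bbs2. These 13 genes were also called, in the same direction, in each other alternative in which they were tested (15 in all, and 12 for Mks1).

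**Figure D2:**
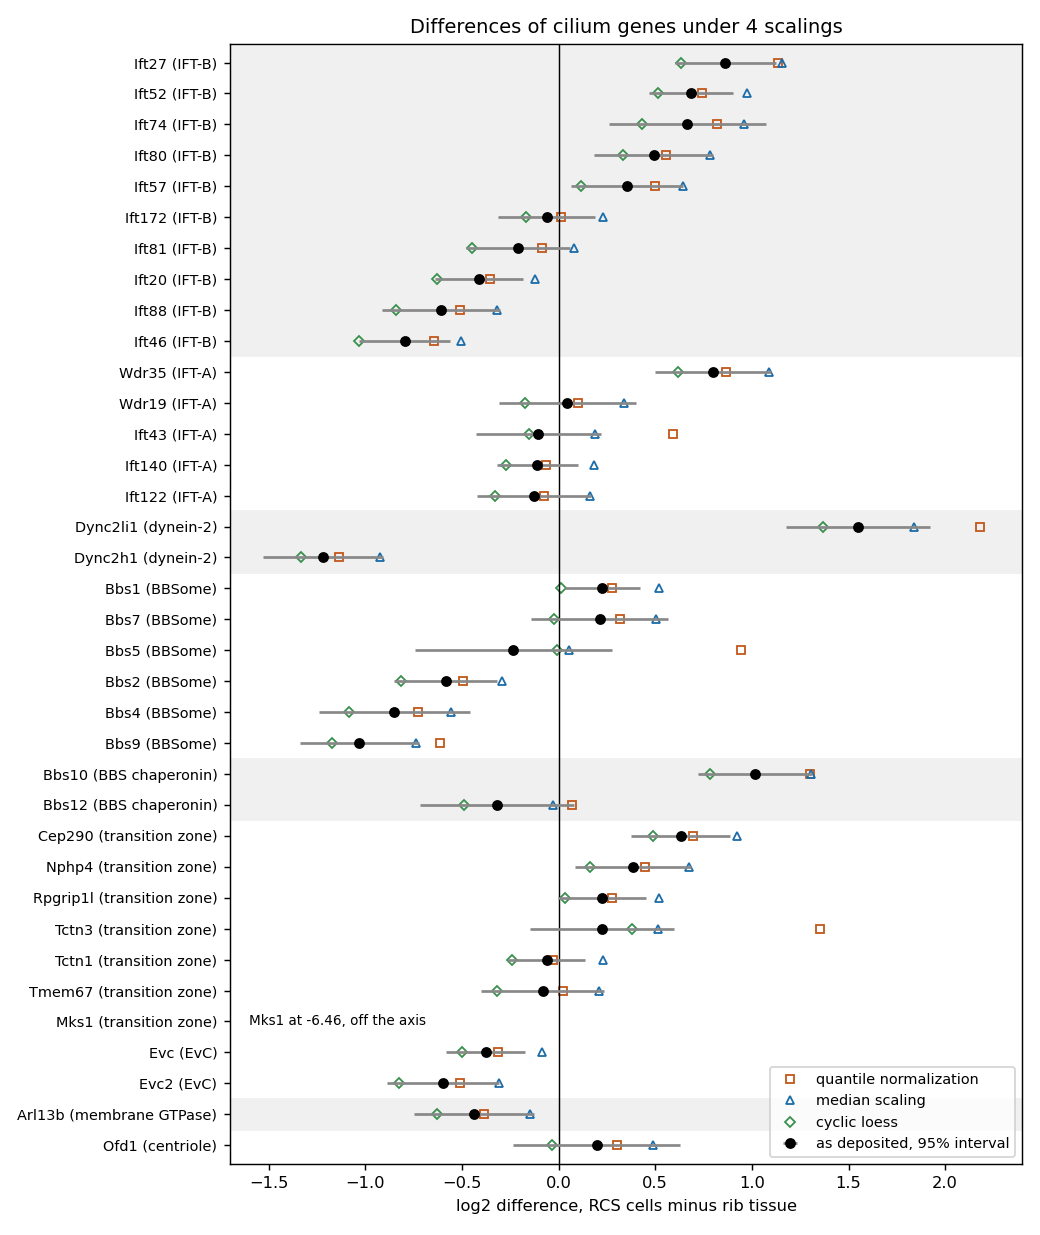
Log2 difference of 36 of the 38 cilium genes tested, RCS cells minus rib tissue, as deposited (black points with the 95% interval from limma) and under 3 other scalings (open symbols); genes are grouped by role, and Mks1 is off the axis. Within IFT-B, the BBSome and dynein-2, some genes lie to the right of 0 and others to the left, and Dync2li1 and Dync2h1 are the farthest apart of the genes drawn.

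The dynein-2 genes split. Dync2h1 encodes the heavy chain, the motor subunit that pulls particles back to the cell body. Its level (ENSRNOG00000032070) was 361, 345 and 270.2 normalized counts in the RCS libraries (replicates 1, 2 and 3, an order used throughout) and 673, 736 and 859 in the rib libraries. Every rib library was above every RCS library, by 2.33-fold on the means (difference -1.22, SE 0.13, limma adjusted p = 5.83e-05). Dync2li1 encodes the light intermediate chain, which stabilizes the heavy chain. It (ENSRNOG00000005151) stood at 199.954, 196.41 and 208.722 in RCS cells and at 53.7, 72.6 and 81.4 in the rib libraries. Here every RCS library was above every rib library, by 2.93-fold (difference 1.55, SE 0.16, limma adjusted p = 4.24e-05).

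Of 10 IFT-B genes, 5 were higher in RCS cells, 3 were lower and 2 passed in neither direction. Of all genes tested, 32.9% were higher and 43.6% lower. Ift27, a small GTPase of the particle, was at 217, 202 and 221 normalized counts in RCS cells and at 103, 121 and 127 in rib tissue. Ift52, a scaffold protein of the IFT-B core, was at 443, 438 and 446 against 245, 279 and 303. The groups were apart at both genes, with 1.82-fold for Ift27 (difference 0.86, SE 0.11, limma adjusted p = 0.000165) and 1.61-fold for Ift52 (difference 0.69, SE 0.09, limma adjusted p = 0.000218). Ift74, which binds tubulin together with Ift81, was at 241, 236 and 257 in RCS cells and 115, 166 and 191 in rib tissue. The rib libraries were spread at this gene and all stood below the RCS libraries (difference 0.67, SE 0.18). The difference was 0.49 (SE 0.13) for Ift80 and 0.35 (SE 0.13) for Ift57. The calls of Ift74 (0.43), Ift80 (0.33) and Ift57 (0.12) were lost under cyclic loess. That of Ift57 was also lost without any RCS library or rib tissue replicate 1 or 2 (0.26 to 0.39).

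The 3 lower IFT-B genes include further core proteins. Ift46 was at 129, 126 and 148 normalized counts in RCS cells and at 224, 234 and 242 in the rib libraries, all of them above the RCS libraries, by 1.74-fold on the means (difference -0.80, SE 0.10, limma adjusted p = 0.000145). Ift88, a core protein whose loss is widely used to remove cilia in mouse models, was at 162, 159 and 191 against 232, 247 and 306. The difference was -0.61 (SE 0.13, limma adjusted p = 0.00295), without overlap. Ift20, which also resides at the Golgi and sorts vesicles to the cilium, was at 211, 201 and 237 against 286, 269.6 and 308 (difference -0.41, SE 0.10). The calls of Ift88 (-0.32) and Ift20 (-0.12) were lost under median scaling. Ift81, the partner of Ift74, differed by -0.21 (95% interval -0.48 to 0.06), and Ift172, by -0.06 (-0.31 to 0.19), and neither passed the test. Leaving out rib tissue replicate 1 (-0.31), or scaling with cyclic loess (-0.45), gave a lower call for Ift81.

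Of 5 IFT-A genes, Wdr35 was the gene called (76.5% of all genes were). It was at 447, 442 and 446 normalized counts in the RCS libraries, a spread of 0.01 on the log2 scale (SD), and at 210.0, 262 and 302 in the rib libraries. The RCS libraries were above every rib library, by 1.74-fold (difference 0.80, SE 0.13, limma adjusted p = 0.000558). The other 4, Ift122, Ift140, Ift43 and Wdr19, which form the rest of the particle among the genes taken, had differences from -0.13 to 0.04 with overlapping groups. Their 95% intervals reached from -0.43 to 0.40 at the widest. Under cyclic loess Ift122 (-0.33) and Ift140 (-0.27) were called lower, and under quantile normalization Ift43 was called higher (0.59).

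Of 6 BBSome genes, 3 were lower in RCS cells (43.6% of all genes were), 1 was higher (32.9%) and 2 passed in neither direction. Bbs9 (ENSRNOG00000015189), a scaffold subunit, was at 74.4, 64.7 and 76.3 normalized counts in RCS cells and 134, 163 and 147 in the rib libraries, where it was 2.04-fold higher (difference -1.03, SE 0.13, limma adjusted p = 0.000152). Bbs4, a subunit that also binds centriolar satellites, was at 129, 142 and 176 against 216, 283 and 312 (difference -0.85, SE 0.17, limma adjusted p = 0.00181). Bbs2, which pairs with Bbs7 and Bbs9 in the assembly of the complex, was at 164, 170.3 and 191 against 229, 273 and 288 (difference -0.58, SE 0.12, limma adjusted p = 0.00183). At these 3 genes the highest RCS library stayed below the lowest rib library. Bbs1, the subunit that binds the GTPase Arl6, was at 304, 276 and 277 in RCS cells and 240.4, 238 and 254 in rib tissue. Its difference of 0.23 (SE 0.08, limma adjusted p = 0.0378) was called without overlap, but the call was lost under cyclic loess (0.01), with a replicate block (0.23) and without any RCS library or rib tissue replicate 1 or 2 (0.18 to 0.25). Bbs7 differed by 0.21 (95% interval -0.14 to 0.57) and Bbs5 by -0.24 (-0.75 to 0.27). Bbs7 was called higher under median scaling (0.50), and Bbs5 turned to 0.94 under quantile normalization, where it was called higher.

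The chaperonin-like genes, whose products help Bbs2, Bbs7 and Bbs9 assemble, differed from each other. Bbs10 (ENSRNOG00000026913) was at 209, 237 and 262 normalized counts in RCS cells and at 104, 115 and 129.8 in rib tissue. The groups were well apart, at 2.02-fold (difference 1.02, SE 0.13, limma adjusted p = 0.000128). Bbs12 was at 88.7, 97.2 and 122 against 107, 128 and 149.9. Its groups overlapped, and the difference of -0.32 (95% interval -0.72 to 0.08) did not pass the test. Leaving out rib tissue replicate 1 (-0.44) or scaling by cyclic loess (-0.49) gave a lower call.

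Of 9 transition zone entries, 8 were tested. In RCS cells 3 were higher (32.9% of all genes were), 1 was lower (43.6%) and 4 passed in neither direction. Cep290, a long coiled-coil protein that ties microtubules to the membrane at the gate, was at 582, 469 and 532 against 303, 368 and 349 (difference 0.63, SE 0.11, limma adjusted p = 0.000898). All RCS libraries stood above the rib libraries at Cep290. Nphp4, a scaffold protein of the transition zone, was at 317, 259.8 and 268 against 235, 182 and 231 (difference 0.38, SE 0.13), a call lost under cyclic loess (0.16) and without RCS cells replicate 1 (0.30) or rib tissue replicate 2 (0.26). Rpgrip1l, Tctn3, Tctn1 and the membrane protein Tmem67 had differences of 0.23, 0.22, -0.06 and -0.08 and did not pass the test. Rpgrip1l (0.28 and 0.52) and Tctn3 (1.35 and 0.51) were called higher under quantile normalization and median scaling, and Tctn1 lower under cyclic loess (-0.24). The Tctn3 values are uncertain, since its 2 entries carry the same description.

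Mks1 had the largest difference of the cilium genes. It encodes a protein of the transition zone complex that is mutated in Meckel syndrome. It (ENSRNOG00000008635) was listed at 0 in all 3 RCS libraries and at 85.1, 90.9 and 84.8 normalized counts in the rib libraries, an estimated 112, 88.7 and 84.8 reads. A gene listed at 0 can have a normalized count of up to 1, which is 1.84, 1.93 and 1.41 reads in the RCS libraries. The fitted difference of -6.46 (SE 0.24, limma adjusted p = 1.5e-07) depends on the pseudocount, and no fold change is given. Across the table, 9639 entries stood at or above the lowest Mks1 rib value in every rib library, and 374 of them, 3.88%, were listed at 0 in every RCS library. Other genes of the same complex were listed above 0 in RCS cells, at levels lower than, near or above those of rib tissue. Cc2d2a was at 122 to 153 normalized counts in RCS cells against 344 to 457 in rib tissue, and Tmem17 at 8.46 to 13.1 against 54.9 to 62.1. Tmem67 was at 175 to 206 against 165 to 227, and Tctn1 at 319 to 331 against 312 to 367. Tmem107 went the other way, at 221 to 261 against 71.3 to 99.6.

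Genes near Mks1 in RefSeq's annotation of the assembly GRCr8 were listed as follows. Supt4h1, Dynll2 and Srsf1 are not its direct neighbours. On one side, Supt4h1, a transcription elongation factor gene, stood at 154 to 182 in rib tissue and 199 to 232 in RCS cells. On the other, Dynll2, a dynein light chain gene, stood at 224 to 287 in rib tissue and 293 to 398 in RCS cells, and the splicing factor gene Srsf1 at 1263 to 1397 and 2254 to 2479. Between them lie the peroxidase genes Mpo, Lpo and Epx of leukocytes and secretory glands. Lpo and Epx were at 0 in every RCS library, Mpo was at 1.09 to 1.56, and in rib tissue the 3 genes had at most 16.9. Mpo and Epx were called lower in RCS cells, and Lpo was not tested. Tspoap1, Or4d2b and Or4d2 lie in the same stretch but had no single entry, and Olr1523, also there, was at 0 in every library. Epx overlaps the span of Mks1 in that annotation, and whether reads were counted by strand is not given in the sources used here. Epx was at 6.3, 11.8 and 1.54 in the rib libraries. Whether the Mks1 zeros in RCS cells depend on how reads of overlapping genes were counted was not tested, nor was any other cause.

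**Figure D3:**
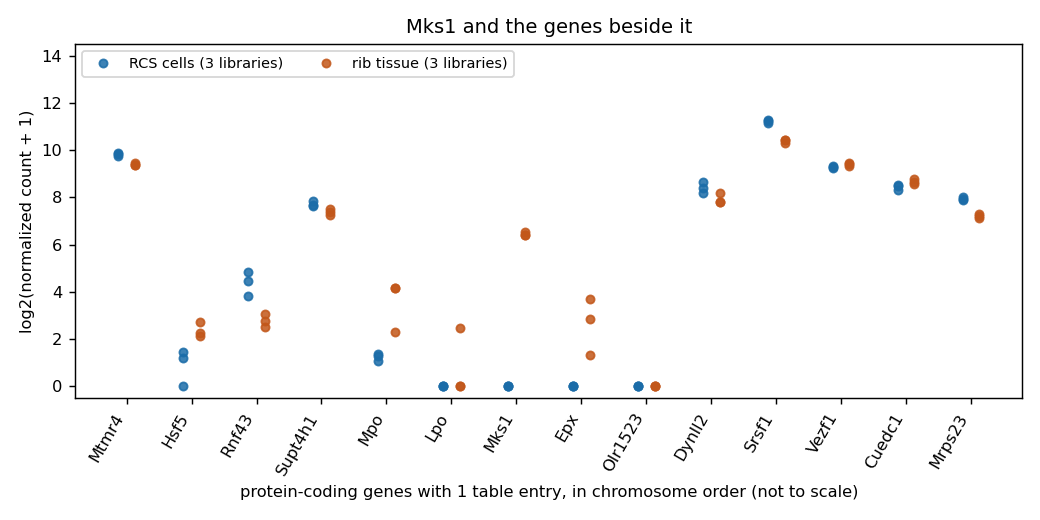
Levels of Mks1 and of the protein-coding genes around it that have 1 table entry, in chromosome order and not to scale, as log2(normalized count + 1) in 3 RCS (blue) and 3 rib (orange) libraries. Mks1 is at 0 in RCS cells and at 84.8 to 90.9 normalized counts in rib tissue, while Supt4h1 on the left and Dynll2 and Srsf1 on the right are listed well above 0 in all 6 libraries.

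Arl13b and the EvC genes were lower in RCS cells. Arl13b, the ciliary membrane GTPase that is often used to stain cilia, was at 244, 258 and 302 against 303, 382 and 409. Its highest RCS library and lowest rib library nearly met (difference -0.44, SE 0.14, limma adjusted p = 0.017). Evc, a membrane protein that passes on the signal of Smoothened, was at 402, 406 and 431 against 596, 511 and 509 (difference -0.38, SE 0.09, limma adjusted p = 0.00441). Evc2, its partner in the complex, was at 184, 168 and 183 against 282, 228 and 308 (difference -0.60, SE 0.12, limma adjusted p = 0.00241). None of the 3 genes had overlapping groups. Under median scaling the calls of all 3 were lost, at -0.15 for Arl13b, -0.09 for Evc and -0.31 for Evc2, and that of Arl13b was also lost without RCS cells replicate 1 or 2 or rib tissue replicate 2 (-0.37 to -0.41). Ofd1, a protein of centriolar satellites and the distal centriole, was at 212, 209.8 and 256 against 149, 199 and 254, with overlap (difference 0.20, 95% interval -0.24 to 0.63). It was called higher under median scaling (0.49) and without rib tissue replicate 3 (0.38).

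**Figure D4:**
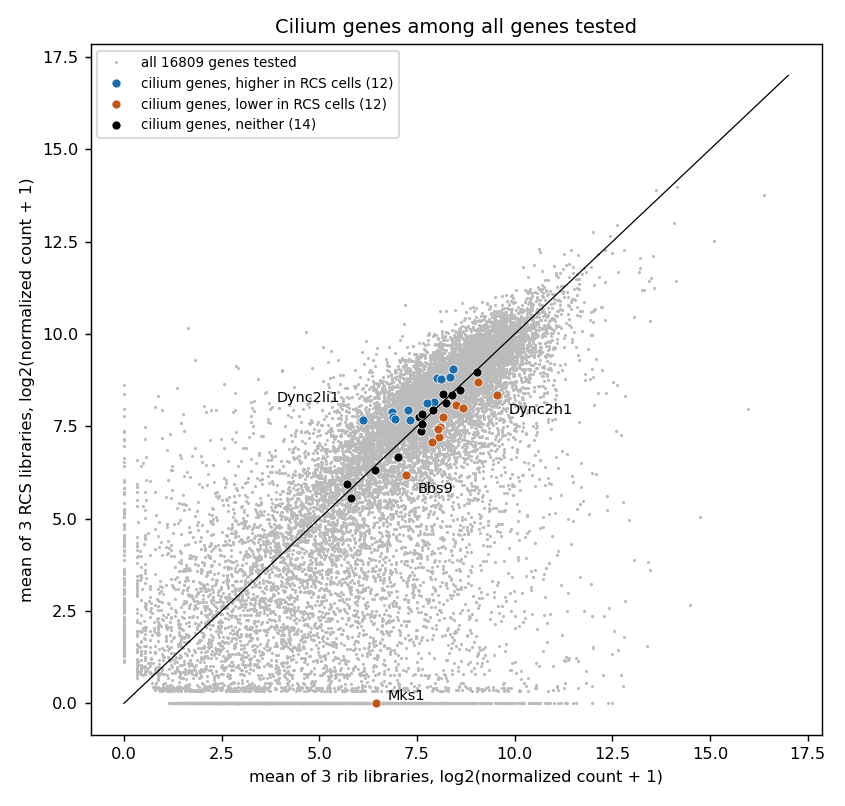
Mean level of each of the 16809 genes tested in rib tissue (horizontal) and RCS cells (vertical), as log2(normalized count + 1), with the 38 cilium genes in colour by their call (12 higher, 12 lower and 14 neither). Apart from Mks1 on the horizontal axis, the cilium genes lie close to the diagonal, with Dync2li1 above it and Dync2h1 and Bbs9 below it.

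The libraries of a group differed in a way shared by many cilium genes. In rib tissue 29 of the 38 genes were highest in replicate 3 (76.3%, against 34.4% of all genes with unequal values), and 26 were lowest in replicate 1 (68.4% against 34.8%). In RCS cells 37 had unequal values. Of these, 22 were lowest in replicate 2 (59.5% against 29.4%) and 20 were highest in replicate 3 (54.1% against 39.1%). Summed normalized counts of the cilium genes were 8689, 9422 and 10374 in the rib libraries and 9326, 8878 and 9490 in the RCS libraries. The summed totals of the groups therefore overlapped. In the same rib libraries muscle markers summed to 36362, 31440 and 20454, fibroblast markers to 78292, 53549 and 44286, and chondrocyte markers to 169609, 104277 and 171236. Col2a1 made up 112920, 55595 and 97595 of the chondrocyte sums. The part of these markers in the order was not tested. The number of cilium genes called ran from 9 to 13 higher and from 10 to 13 lower when 1 library was left out.

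Promoters of the cilium genes were searched for letters of the site that RFX transcription factors bind. RFX proteins act on an X-box, a pair of mirrored sites found in front of many ciliary genes, and 1 site of the pair is commonly GTTGCC, or GGCAAC when read from the other strand. These 6 letters were searched on both strands of RefSeq promoters of the assembly GRCr8, 250 bases before to 50 after the annotated start. Promoters of 29 of the 38 cilium genes were matched, and 14 of them (48.3%) held the letters. Of all 27457 annotated genes with such promoters, tested here or not, 13.1% held them, and of all 33469 promoters 12.2%. The letters were in 5 of 7 matched genes called higher, 4 of 9 called lower and 5 of 13 in neither class. These classes hold 12, 12 and 14 genes in all, so the unmatched genes could change the split. A match is only a match of letters. The stretches printed here are shown because they come from the called genes of both directions, with the GTTGCC or GGCAAC letters in capitals, 30 bases each on the strand of the gene. Of the matches in Ift27, the one nearest the start is shown. The letters begin after the annotated start in Nphp4 (by 1 base), Ift20 (3), Bbs1 (16), Ift27 (18) and Bbs2 (24). They begin before it in Wdr35 (by 10 bases), Dync2li1 (14), Ift88 (34) and Mks1 (56).
Dync2li1, higher in RCS cells, chr6:15778163-15778192, minus strand: cgtcgctgccatGGCAACcaaggagcctgc
Ift27, higher, chr7:111634901-111634930, minus strand: gggttgatgataGTTGCCaggagcctgttt
Wdr35, higher, chr6:37490549-37490578, plus strand: tgggcggcgctgGTTGCCaggcgacgggag
Nphp4, higher, chr5:168271062-168271091, plus strand: tggtgcattccgGTTGCCagctgaagttcg
Bbs1, higher, chr1:211633435-211633464, minus strand: ctggctgagctgGTTGCCaagacgacgcct
Bbs2, lower, chr19:10915578-10915607, plus strand: tatccgctgctaGGCAACcggcctgccaag
Ift20, lower, chr10:63930672-63930701, plus strand: tatttctctcgtGTTGCCtctatttcccag
Ift88, lower, chr15:35688941-35688970, plus strand: ggagccgcacctGGCAACggctgggcgtcc
Mks1, lower, chr10:73153153-73153182, plus strand: gccagcgtctccGTTGCCaggggaacgggg

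The upstream stretch of Mks1 is given whole, since this gene was listed at 0 in RCS cells. It covers the 250 bases before the RefSeq start at chr10:73152971-73153220 (GRCr8, plus strand), and its capitals mark the same letters, 56 bases before the start.
Mks1 upstream: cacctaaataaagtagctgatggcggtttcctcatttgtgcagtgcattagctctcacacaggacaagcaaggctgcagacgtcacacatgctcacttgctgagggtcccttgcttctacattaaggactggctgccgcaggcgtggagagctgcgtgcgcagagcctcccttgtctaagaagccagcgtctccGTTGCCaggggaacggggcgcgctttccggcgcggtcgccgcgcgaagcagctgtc

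The RFX genes themselves were measured in the same libraries. Of 7, 1 was higher in RCS cells and 4 were lower (1 and 2 under median scaling, 2 and 4 under cyclic loess and under quantile normalization), with a median difference of -0.42. Over all genes 32.9% were higher and 43.6% lower, with a median of -0.15. Rfx3, known for ciliogenesis, was at 27.2, 22.7 and 33.7 normalized counts in RCS cells and 88.8, 106 and 98.9 in rib tissue (difference -1.79, SE 0.19). Rfx4 was at 59.9, 54.8 and 54.5 against 3.99, 10.8 and 5.64 (difference 2.97, SE 0.33). Rfx7 (-0.86) and Rfx5 (-0.42) were lower, the latter not under median scaling (-0.13).

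Other genes of the pathway, from lists that do not follow the symbol rule, were also measured. In 5 lists of structural cilium genes, 68 of 70 names were matched and tested, and 34 were higher (32.9% of all genes were), 13 lower (43.6% of all genes were) and 21 neither, with a median difference of 0.42 against -0.15 over all genes. With quantile normalization 44 were higher and 8 lower (47.6% and 29.3% of all genes). With median scaling these were 52 and 9 (42.5% and 37%), and with cyclic loess 34 and 14 (37.1% and 36.9%). Among 18 further IFT, dynein-2 and kinesin-II genes, 8 were higher and none was lower (0, also under the 3 other scalings, where 13 were higher with quantile normalization, 17 with median scaling and 9 with cyclic loess). Rabl5, the gene of a GTPase of the IFT-B particle, was at 82.2, 96.8 and 103 normalized counts in RCS cells and 26.8, 44.5 and 36.2 in rib tissue (difference 1.39, SE 0.21). Ttc30b, an IFT-B gene with a near copy whose reads may be split, differed by 0.09 (95% interval -0.08 to 0.26) and Kifap3, the kinesin-II adaptor, by 0.21 (-0.01 to 0.42). Both were called higher under quantile normalization (0.23 and 0.28) and median scaling (0.39 and 0.50), and Kifap3 also without rib tissue replicate 2 (0.29).

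Of 10 further BBS genes and regulators, 6 were higher and 3 lower (7 and 1 under quantile normalization, 7 and 2 under median scaling). All-gene shares were 32.9% higher and 43.6% lower (47.6% and 29.3%, and 42.5% and 37%, under these scalings). Rab3ip, which activates Rab8 for the growth of the ciliary membrane, was at 187, 182 and 169.7 normalized counts in RCS cells and 55.8, 63.5 and 44.2 in rib tissue (3.28-fold, SE 0.16 log2). Trim32 (2.04-fold) and Rab8a (1.51-fold) were also higher. Ccdc28b, a BBSome interactor, was at 1.7, 4.97 and 3.63 against 52.3, 86.1 and 50.8 (difference -3.89, SE 0.37). Of 14 further transition zone and inversin genes, 6 were higher and 4 lower (9 and 3 under quantile normalization, 10 and 4 under median scaling). Tmem107 was at 221, 221 and 261 in RCS cells and 71.3, 82.5 and 99.6 in rib tissue (2.77-fold). Lower were Tmem17 (10.3, 8.46 and 13.1 against 54.9, 62.1 and 56.5), Cc2d2a (143, 122 and 153 against 344, 457 and 403) and Ahi1 (difference -1.02, SE 0.14). Like Mks1, Tmem17, Tmem107 and Cc2d2a belong to the transition zone complex, so its genes lay on both sides.

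Of 10 genes of EvC partners and the ciliary membrane, 5 were higher and 3 lower, beside 32.9% higher and 43.6% lower of all genes. Rab23, a GTPase that restrains hedgehog signalling, was at 1002, 984 and 899 normalized counts in RCS cells and 352, 367 and 369.7 in rib tissue (2.64-fold, SE 0.08 log2). The phosphatase gene Inpp5e was 1.74-fold higher, and Cys1, the cystin gene, was at 8.02, 14.01 and 10.3 against 115, 88.1 and 96.8 (difference -3.12, SE 0.25). Of 16 basal body and centriolar satellite genes, 9 were higher and 3 lower (12 and 0 under median scaling, 8 and 4 under cyclic loess). Odf2 of the basal body was 2.31-fold and Pcm1, the scaffold of satellites, 1.605-fold higher, and C2cd3 differed by -0.34 (SE 0.12), a call lost under median scaling (-0.05) and without RCS cells replicate 2 (-0.35), RCS cells replicate 3 (-0.29) or rib tissue replicate 2 (-0.23). Many genes of the basal body belong to the centrosome of dividing cells too, and all 8 proliferation markers were higher in RCS cells, whose part was not tested.

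**Figure D5:**
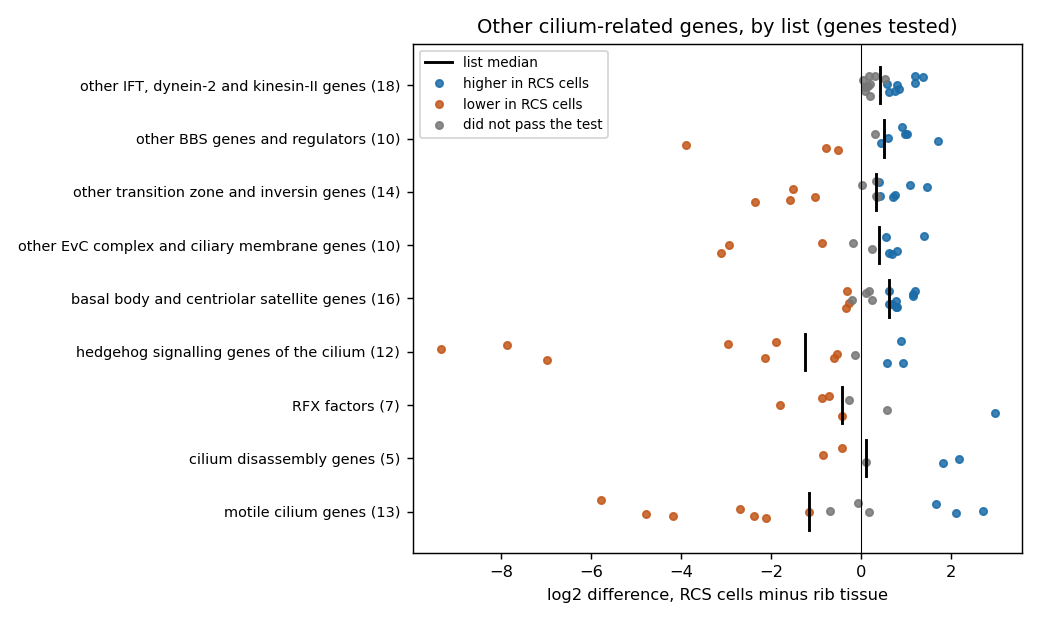
Log2 difference, RCS cells minus rib tissue, of each gene tested in 9 lists of other cilium-related genes, with the number tested in brackets; colours give the call and black lines the list medians. The upper 5 lists have medians between 0.34 and 0.62, while hedgehog genes have a median of -1.25.

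Hedgehog signalling passes through the cilium. Of 12 genes of this pathway, RCS cells had 3 higher and 8 lower, and 1 passed in neither direction. Over all genes 32.9% were higher and 43.6% lower. Gli1, a target gene of the pathway, was at 958, 806 and 767 normalized counts in RCS cells and 507, 377 and 437 in rib tissue (1.92-fold, SE 0.13 log2), and Ptch1, the receptor and also a target, was 1.495-fold higher. Other genes of the pathway went the opposite way. Hhip, a decoy receptor and also a target, was at 1.09, 1.56 and 0 against 436, 497 and 310 (difference -7.87, SE 0.38), and the ligand gene Ihh was at 1.63, 1.04 and 2.13 against 344, 408 and 233 (difference -6.97, SE 0.28). Both were chosen after their values were seen. Smo, the membrane protein that carries the signal into the cilium, differed by -0.14 (95% interval -0.37 to 0.10), turning to 0.16 under median scaling, and was called lower without rib tissue replicate 2 (-0.24). Gli3, whose processed form represses targets, was at 271, 248 and 279 against 1034, 1052 and 1444 (difference -2.13, SE 0.13), and Gli2 was lower by a difference of -0.61 (SE 0.18), a call lost under median scaling (-0.31). The co-receptor genes Gas1 (listed at 0 in every RCS library, 568 to 806 in rib tissue) and Boc (487 to 546 against 1765 to 2109) were lower. Both are also expressed in mesenchyme outside cartilage, and the fibroblast and perichondrium markers, which summed to 44286 to 78292 in rib tissue and 213 to 237 in RCS cells, moved with them. Their part was not tested.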

How the data were processed

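RNA was sequenced in 3 libraries of RCS cells and 3 of rib tissue, grouped by sample title. The deposited table holds log2 values by the authors for 27217 entries. From the values, and although the table is labelled RPKM, each is taken as the log2 of reads scaled by a factor of its library, with normalized counts of 1 or less listed as 0. The submitters' processing notes name CASAVA 1.8, DESeq and the build rn5 but not what each did. Aligner, counting rule and strand use: not given in the sources used here. Between 38.6% and 54.6% of each library's values up to 10 reads lay within 0.01 of a whole read, so whole reads were not recovered and no count model was used. Each library's total, divided by what 1 read was worth, gave its estimated depth.

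The test was limma 3.58.1 (R 4.3.3) on log2(normalized count + 1), with trended empirical Bayes variances, two-sided p-values and Benjamini-Hochberg adjustment, for genes with a value of at least 1 in at least 3 libraries, 16809 in all. The fit was tested on simulated data with known shifts in some genes of higher level. That run does not cover the choice of scaling or genes listed at 0 in a whole group. Fold changes are on this scale, which understates the change of a low gene. None is given where a group mean was under 10. Of 171 list names, 165 were matched, by symbol or by Entrez identifiers through RefSeq names (GRCr8). The lists were further IFT, BBS, transition zone, EvC and membrane, basal body, hedgehog, RFX, disassembly and motile cilium genes, and markers of 8 cell types or states. Some cilium genes are counted but not reported here by name. Named were the other cilium genes, and of each list of other genes the 2 with the highest mean and the called gene with the largest difference in each direction, with Ptch1, Smo, Gli2 and Gli3. Hhip, Ihh and Plk1 were also named, after their values were seen. Supt4h1, Dynll2, Srsf1, Mpo, Lpo, Epx and the other genes near Mks1 were chosen after its values were seen, as were the promoter letters. The members and lists were chosen with earlier results of these data known. Alternatives were 3 other scalings, pseudocounts of 0.1 and 5, no filter, a filter of 10, array weights, a replicate block and leaving out each library.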

Additional observations from a re-analysis of the deposited data

How the results depend on the processing

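The direction of all 24 called cilium genes held in the alternatives in which they were tested. Calls depended mainly on the scaling. Under cyclic loess 7 cilium genes in place of 12 were higher, and under median scaling 6 in place of 12 were lower. The counts of cilium genes stayed within 1.5 times of the main counts in the other alternatives. Leaving out 1 library gave 9 to 13 higher and 10 to 13 lower cilium genes, 4778 to 5546 higher and 5064 to 7049 lower of all genes, and 39 to 48 higher and 29 to 32 lower genes of the other cilium lists. Mks1 and Gas1 could not be tested without a rib library, since fewer than 3 libraries were then left above the filter.

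Directions of genes that are not named were not followed gene by gene. The median of the motile cilium genes went from -1.15 to 0.33 under quantile normalization and 0.29 under cyclic loess. Some unnamed genes of that list that were called lower must therefore have turned. Among the cilium genes and the other genes named by rule, directions that turned belonged to genes that had not passed the test. Under quantile normalization these were Bbs5 (0.94), Ift43 (0.59), Bbs12 (0.071), Tmem67 (0.025) and Ift172 (0.013). Under median scaling they were Ift81 (0.080), Bbs5 (0.056), Smo (0.16), Ift43 (0.19), Ift122 (0.16), Ccdc39 (0.21), Tmem67 (0.21), Ift140 (0.18), Tctn1 (0.23) and Ift172 (0.23). Under cyclic loess they were Wdr19 (-0.18), Ofd1 (-0.036) and Bbs7 (-0.022), and with array weights Wdr19 (-0.10). Leaving out each library in turn gave -0.10 to 0.16 for Wdr19, which turned without RCS cells replicate 1 (-0.051) or rib tissue replicate 1. The range was -0.00041 to 0.38 for Ofd1 and -0.17 to 0.025 for Ift172, which turned without rib tissue replicate 1. It was -0.21 to 0.012 for Ift122, -0.25 to 0.071 for Ccdc39 and -0.21 to 0.019 for Tmem67, which turned without rib tissue replicate 3. The cause was not tested.

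With the replicate number as a block, 11 cilium genes were higher and 12 lower, and Bbs1 was the call lost. The labels do not say whether same-numbered libraries were handled together. Deviations of such libraries from their group means correlated across genes at 0.11, -0.15 and 0.05. Not every library correlated best with its own number.

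The depth of 5319360 to 8525030 reads limits the low genes, and a value listed at 0 does not show absence.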

Other observations

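Genes of motile cilia, which drive fluid and are not part of the primary cilium, were mostly low in both groups. Of 19 matched in the table, 13 were tested, with 3 higher, 7 lower and 3 in neither class for RCS cells (6 and 3 under quantile normalization, 5 and 3 under cyclic loess). The shares over all genes were 32.9% higher and 43.6% lower. Mcidas, Rsph4a, Spag6 and Pifo were listed at 0 in all 6 libraries, and 8 of the 19 were at 0 in every RCS library. Among the 3 higher genes, Dnai2, an outer arm dynein intermediate chain gene, was at 380.2, 411 and 410.0 in RCS cells and 78.8, 110.1 and 88.3 in rib tissue (4.34-fold, SE 0.13 log2). Ccdc40, a ruler protein of motile axonemes, was at 77.3, 66.6 and 81.9 against 8.9, 12.4 and 10.54 (difference 2.72, SE 0.22), while Ccdc39, its partner, differed by -0.08 (95% interval -0.43 to 0.27) and was called lower without rib tissue replicate 1 (-0.25). Drc1, a gene of the regulatory complex of motile axonemes, was at 1.96, 1.04 and 0 in RCS cells and 74.9, 75.9 and 174 in rib tissue (difference -5.79, SE 0.49).

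Genes that act in the removal of cilia before division went both ways. Of 5 tested, 2 were higher and 2 lower (3 and 1 under median scaling), beside 32.9% higher and 43.6% lower of all genes. Aurka, the kinase that starts disassembly and also acts in mitosis, was at 618, 635 and 647 in RCS cells and 158, 159 and 106 in rib tissue (4.55-fold, SE 0.15 log2). Nedd9, its scaffold, was at 319.9, 362 and 400.3 against 606, 669 and 676 (difference -0.85, SE 0.10), and Kif2a differed by -0.42 (SE 0.12), a call lost under median scaling (-0.13). Plk1, the other higher gene, is also among the 8 proliferation markers. These markers were higher in RCS cells, and their part was not tested.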
